A study of Homo sapiens with 8 samples.

Results

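The annexins described here are 8 genes, ANXA1, ANXA2, ANXA3, ANXA4, ANXA5, ANXA10, ANXA11 and ANXA13. They were taken as every probe set whose only annotated gene symbol is one of these, which gave 12 of the 22215 non-control probe sets and 8 of 11963 genes. The family was singled out because ANXA10 read low in HT29 clones. The ANXA10 values are therefore given as a description, with no test. Transcript levels were measured on 8 Affymetrix human arrays, 1 per cell sample. Untreated HT29, a human colorectal cancer line, and untreated Colo357, a human pancreatic cancer line, had 1 array each. Each line also had 1 array after 72 h with the anti-CD24 monoclonal antibody SWA11 at a dilution of 1 to 40. The other 4 arrays came from HT29-derived clones, 1 with a vector for a GFP-directed shRNA, 1 with a vector for a CD24-directed shRNA, and 2 with 2 such CD24 vectors each. Each clone array is 1 clone, and untreated HT29 is the uncloned line, so the effect of an shRNA and a difference between clones cannot be told apart. No array of a control antibody was used here.

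Annexins are proteins that bind acidic phospholipids on the cytosolic face of membranes when calcium rises. Each has a conserved core that docks on the membrane and a variable N-terminal tail that binds partners such as S100 proteins. They act in membrane repair, vesicle traffic and exocytosis, and some reach the cell surface. ANXA10 is a poorly calcium-responsive member made mainly in gastric mucosa and used by pathologists as a marker of serrated colorectal lesions. ANXA13 is an intestine-enriched member whose tail is myristoylated.

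Promoter sequence from RefSeq (GRCh38.p14) was found for 7 of the 8 genes and is shown for the 2 members with the widest range of level among those 7, ANXA10 and ANXA1, and for the one with the narrowest, ANXA2. The 250 bases before the annotated start are written 5′ to 3′ on the gene's strand, and capitals mark TATAAA and CpG dinucleotides. The ANXA10 window is chr4:168092287-168092536 on the plus strand, ANXA1 chr9:73151615-73151864 on the plus strand, and ANXA2 chr15:60397987-60398236 on the minus strand.
ANXA10: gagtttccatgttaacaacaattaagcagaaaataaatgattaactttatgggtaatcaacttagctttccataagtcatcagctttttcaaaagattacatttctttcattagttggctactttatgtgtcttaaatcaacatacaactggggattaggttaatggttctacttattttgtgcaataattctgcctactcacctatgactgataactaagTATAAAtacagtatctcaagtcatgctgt
ANXA1: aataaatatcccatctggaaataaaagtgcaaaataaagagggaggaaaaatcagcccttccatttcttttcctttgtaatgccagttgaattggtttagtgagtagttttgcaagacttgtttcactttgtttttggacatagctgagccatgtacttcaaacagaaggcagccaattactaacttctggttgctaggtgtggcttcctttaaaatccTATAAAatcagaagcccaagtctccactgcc
ANXA2: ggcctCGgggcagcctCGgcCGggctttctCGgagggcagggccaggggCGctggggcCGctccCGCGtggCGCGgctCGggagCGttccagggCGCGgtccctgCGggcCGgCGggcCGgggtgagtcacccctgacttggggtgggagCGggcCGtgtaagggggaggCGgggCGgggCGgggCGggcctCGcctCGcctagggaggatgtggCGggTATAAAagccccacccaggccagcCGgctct

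The ANXA10 and ANXA1 windows held no CpG and the ANXA2 window 28. GC content was 31.2% for ANXA10, 38.4% for ANXA1 and 78% for ANXA2. All 3 had TATAAA close to the start, beginning 29 bases before it in ANXA10 and 31 bases before it in ANXA1 and in ANXA2. Of the 35116 RefSeq promoters, 6.06% held no CpG in the same window, 6.80% held TATAAA on the gene's strand, and 1.14% had both features, as ANXA10 and ANXA1 did. The median promoter held 11 CpG. GTTAAT, the core of the sites of HNF1 homeodomain factors, was sought on both strands (GTTAAT or ATTAAC). It was present 2 times in the ANXA10 window, in 0 of the other 9 annexin windows and in 6.23% of all promoters. These matches describe letters in a window and do not show a factor bound there.

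ANXA3 held 18 CpG, ANXA5 31, the annotated starts of ANXA4 36 and 21, and those of ANXA11 5, 9 and 22. The ratio of the highest to the lowest intensity over the 8 arrays was 238 for ANXA10 and 28.1 for ANXA1. It was 7.25 for ANXA3, 5.21 for ANXA4, 2.60 for ANXA11, 2.31 for ANXA5 and 1.34 for ANXA2. The genes without CpG thus had the widest ranges of the 7, a description over few genes on arrays that share lines. ANXA10 was chosen by its low clone values, so its wide range was in part set by that choice. ANXA13, dim and without a promoter sequence here, had a ratio of 84.9, above that of ANXA1.

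**Figure D1:**
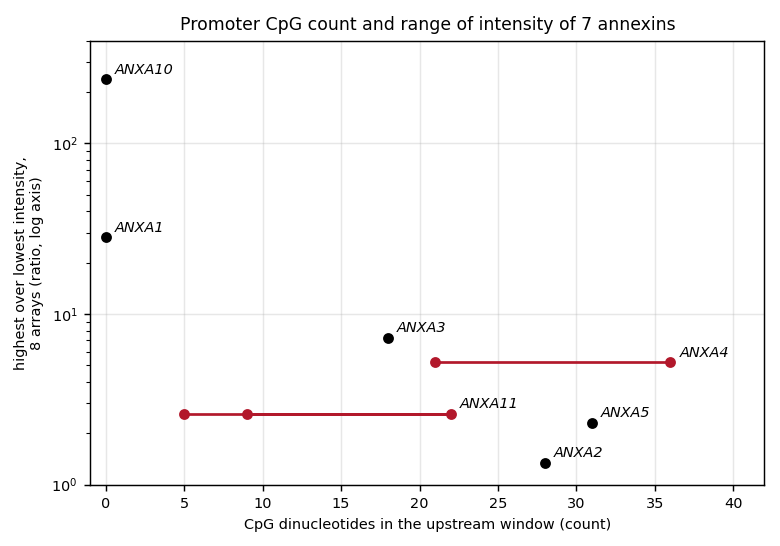
CpG dinucleotides in the 250 bases before the annotated start (x axis, count) against the ratio of highest to lowest MAS5 intensity over the 8 arrays (y axis, log scale) for 7 annexins. Red lines join the starts of genes with several. ANXA10 (ratio 238) and ANXA1 (28.1) sit at 0 CpG, and ANXA2 (1.34) at 28. ANXA10 was chosen by its low clone values, and ANXA13 (84.9) had no promoter sequence and is not drawn.

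Values are MAS5 intensities on a linear scale. Differences are on the log2(intensity + 10) scale, which understates changes of dim probe sets. The median non-control intensity of an array ranged from 32.4 to 63.1, with no detection call, so a low reading is not called absent. CD24 itself, by its brightest probe set, read 6425.1 in untreated HT29 and 7362.5 in the GFP clone. The 1-vector clone read 558 and the 2-vector clones 171.7 and 595.5. The first 2-vector clone stood apart in RNA controls. Its 18S rRNA probe set read 434.8, where the remaining 7 arrays read 14.7 to 48, and its 3′ ACTB signal was 1.77 times the 5′ signal, where theirs was 1.06 to 1.17 times. Of the 8 colorectal markers, KRT20, LGALS4 and VIL1 read 1117.1, 4581.5 and 439.3 in untreated HT29, while CDX1, CDX2, CDH17, GPA33 and CEACAM5 read 6.5, 3.2, 6.6, 26.4 and 56.9. VIL1 read 1123.5 in untreated Colo357, above HT29. Of the listed pancreas genes, KRT7, a duct keratin, read 5468.1 in untreated Colo357 and 38.8 in untreated HT29. MUC1 and KRT19 read 1814.7 and 7691.6 in untreated Colo357 against 55.6 and 3780.2 in untreated HT29. SOX9 went the other way, at 394.4 against 1362.4. CPA1, INS and GCG, of acinar and endocrine cells, read 2.2 or less in untreated Colo357. CELA3A, also acinar, read 25 there and 40.3 in untreated HT29. Markers of blood, endothelial and stromal cells read 113.9 or less on every array, the highest being COL1A1.

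ANXA10 was high in uncloned HT29 and low in all 4 clones and in Colo357. Its single probe set read 2276.7 in untreated HT29 and 2284.7 in antibody-treated HT29. The GFP shRNA clone read 302, the clone with 1 vector 162.5, and those with 2 vectors 75.7 and 108.9. In Colo357 it read 23.2 untreated and 9.6 after antibody. The order of levels was thus uncloned HT29, GFP clone, 1-vector clone, 2-vector clones, Colo357, and the 4 clones did not overlap with the uncloned arrays or with Colo357. The lowest clone, at 75.7, was the 2-vector clone whose RNA controls stood apart. With 1 clone carrying 1 vector, an effect of vector number was not tested.

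Untreated HT29 was 7.54-fold above the GFP clone and 14.0-fold above the clone with 1 vector. It was 30.1-fold and 20.9-fold above those with 2. The 4 clones averaged, in log2, 7.26 ± 0.80 (SD, n = 4 clones) against 11.16 over the 2 uncloned HT29 arrays, a difference of -3.90. Of 6753 genes above the filter in these 6 arrays, 1.3% had all 4 clones at least 2-fold below both uncloned arrays, and 3.14% had all 4 at least 2-fold above. Colorectal markers moved with it in part: between the 4 clones and uncloned HT29, LGALS4 differed by -4.80, VIL1 by -3.33 and KRT20 by 0.91, and their part in the ANXA10 difference was not tested. ANXA10 ranked 14th from the lowest of the 6753 differences. No other annexin that passed the filter met that 2-fold rule in either direction. Without detection calls, the files do not settle whether the remaining signal in the clones is ANXA10 transcript or background, so ANXA10 is called lower in the clones here, not lost. On this probe set the lowest clone read 75.7 and the higher Colo357 array 23.2.

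The GFP clone carried no CD24 shRNA and still differed from untreated HT29 by -2.87 for ANXA10. The CD24 shRNA clones lay lower again, by -1.37 against the GFP clone. Against both controls together their difference was -2.81, between a mean of 6.92 ± 0.50 (SD, n = 3) and 9.72. That average joins a control at 2276.7 with one at 302. Taken against untreated HT29 alone it was -4.24, and against the GFP clone alone -1.37, so its size turned on the control.

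Genes whose level followed ANXA10 over the 8 arrays were sought by Pearson correlation of log2 values among 6781 genes above the filter. PPFIBP2, a liprin scaffold, was most alike (r = 0.993), at 168.5 and 157.2 in uncloned HT29, 32.9 to 67.4 in the clones and 22.9 and 13.5 in Colo357. PGGHG, which trims hydroxylysine-linked glucose, followed (r = 0.960), then the myosin light chain MYL12B (0.959), the acyl-CoA synthetase ACSL5 (0.956) and the mitochondrial ribosomal protein MRPS33 (0.952). In all, 26 genes reached 0.9. The 8 arrays share lines and clones, so these correlations describe 1 split of few samples.

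The genes beside ANXA10 on chromosome 4 were read in the same way. The 4 nearest measured genes on one side were SPOCK3, TLL1, HADHAP1 and CPE, and on the other DDX60, PALLD, CBR4 and CLCN3. Their differences between the 4 clones and uncloned HT29 ran from -0.38 for CBR4 to 0.24 for DDX60, against -3.90 for ANXA10. Only HADHAP1, PALLD and CLCN3 of the 8 passed the filter, and 0 of the 8 had all 4 clones beyond 2-fold on one side. Over all genes above the filter only 1.3% did so downward and 3.14% upward. CPE, TLL1 and SPOCK3 read 4.7 or less in uncloned HT29, too low to show a 2-fold fall on this scale. Whether the locus changed in the clones was not tested. PALLD, an actin-bundling protein, read 67.5 in untreated HT29 and 1671.5 in untreated Colo357, the opposite order to ANXA10.

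Of 15 listed gastric and serrated-lesion genes, 12 had a value and 3 passed the filter in the clone comparison. CTSE, the gastric protease cathepsin E, was one of these, with 147 and 168.8 in uncloned HT29 and 16.3 to 35 in the clones. Its difference was -2.30, and it met the same 2-fold rule as ANXA10, as did 1.3% of genes above the filter. The gastric trefoil peptide TFF2, named after its values were seen, read 97.9 and 166.7 in uncloned HT29 and 1.1 to 6.9 in the clones, but its mean did not pass the filter. AQP5, a water channel of gastric glands, read 142.9 and 201.8 in uncloned HT29 and 122.8 to 349.9 in the clones, and the calcium-binding S100P 5116.5 and 8162.8 against 4710.2 to 8979.4. These 2 genes overlapped between clones and uncloned cells. The median over the 3 was 0.07, near the 0.04 of all genes. In Colo357 against HT29, CTSE was lower (-2.51; limma adjusted p = 0.000451), the only 1 of 3 tested to pass. Over all genes 8.55% passed as lower and 10.8% as higher. CTSE read 11.8 and 29.6 in Colo357. It passed the filter through uncloned HT29 in both comparisons, so its lower calls were in part set by the filter.

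**Figure D2:**
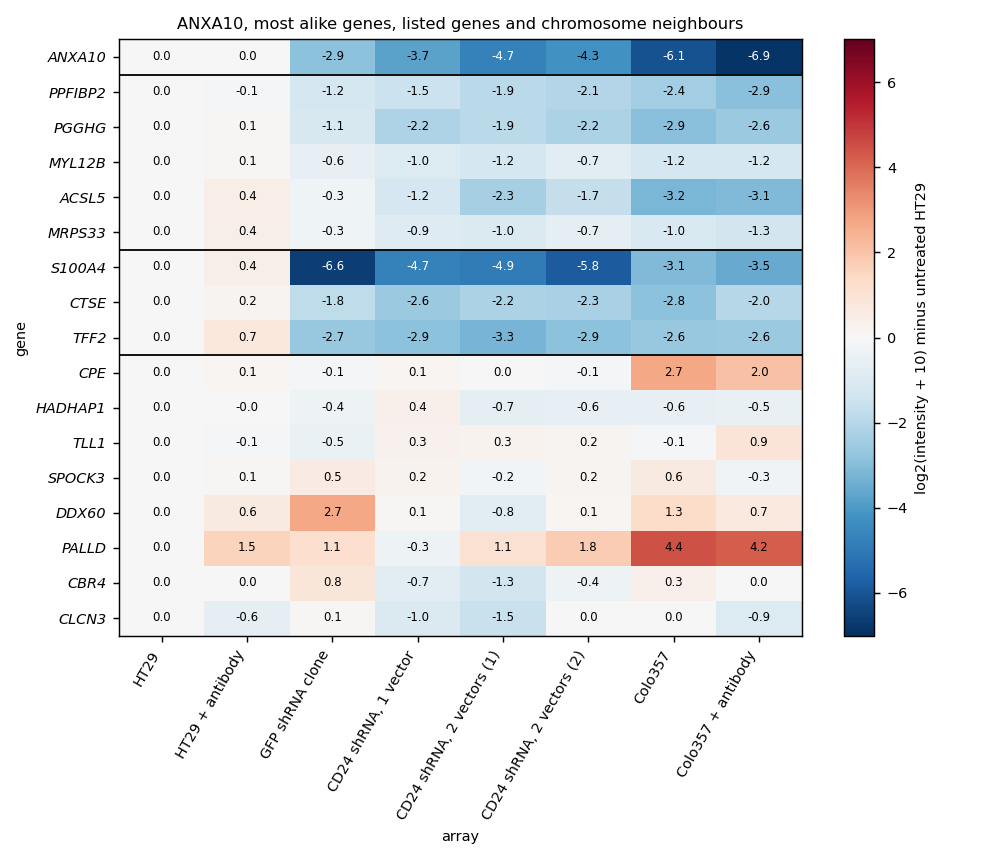
Log2(intensity + 10) relative to untreated HT29 (colour and printed value) on the 8 arrays (columns) for ANXA10, the 5 genes most like it, 3 listed genes and its 8 chromosome neighbours (rows, from top to bottom). The 3 listed genes are ones lower in every clone. AQP5 and S100P, of the same list as CTSE and TFF2, overlapped between clones and uncloned cells and are not drawn. ANXA10 is low in every clone and in Colo357, with S100A4, CTSE and TFF2, while 0 of the 8 neighbours have all 4 clones 2-fold below both uncloned arrays. Over all genes above the filter 1.3% meet that rule, and several neighbours are too dim to meet it.

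ANXA13 was dim throughout, and its mean did not pass the filter in the fits. It read 34.1 in untreated and 101.9 in antibody-treated HT29, then 4.7, 1.2, 9 and 1.6 in the GFP, 1-vector and the 2-vector clones. Colo357 read 30.8 untreated and 18.7 after antibody. The clones lay below both uncloned HT29 arrays, by -2.35 on average, and below both Colo357 arrays. The share of all genes in that order was not counted, and the clone readings were near the bottom of the scale. That size depended on the added constant, at -3.82 with 1 and -1.07 with 50 in place of 10. Its pattern over the arrays was most like IGFLR1, a TNF receptor-like protein (r = 0.968), the small GTPase RALB (0.968) and the fatty acid hydroxylase FA2H (0.960).

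The series design compares CD24 shRNA clones with controls, here untreated HT29 and the GFP clone. Of the 7 annexins above the filter, ANXA4 and ANXA10 were lower in all 3 clones than in both controls, ANXA2, ANXA5 and ANXA11 were higher in all 3, and ANXA1 and ANXA3 overlapped. Over all 6752 genes the 3 clones lay above both controls for 20.1% and below both for 19.9%. In limma 0% of these genes passed Benjamini-Hochberg adjusted p 0.05 in either direction, so 0 annexins did, and 430 genes (6.37%) were higher and 922 (13.7%) lower at an unadjusted p under 0.05. The labels do not say that samples came from separate cultures, so each p-value reflects only the variation among these arrays, which may in part be technical. In the clone fit that variation also holds differences between clones, and between uncloned HT29 and the GFP clone.

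ANXA4 is a membrane-aggregating annexin of secretory epithelia. Its brighter probe set read 3520.8 in untreated HT29 and 3304.4 in the GFP clone. The 1-vector clone read 2351.2, the 2-vector clones 1299 and 1473.2. The log2 difference was -1.04 ± 0.40 (SE, n = 3 and 2; limma adjusted p = 0.228). Its second probe set, fitted in an analysis added after seeing the data, had the groups further apart, with 2149.5 and 2210.7 in the controls and 478.9, 310.5 and 684.5 in the clones. That difference was -2.20 ± 0.42 (limma adjusted p = 0.236 over 11107 probe sets), 4.59-fold in place of 2.06-fold. Both probe sets had all 3 clones below both controls, and the GFP clone lay within 1.07-fold of untreated HT29 on each. Over all genes, 17% were 2-fold or more lower in this comparison and 7.17% as much higher. The first 2-vector clone, whose RNA controls stood apart, had the lowest ANXA4 reading of the clones on both probe sets. Without it the brighter probe set differed by -0.87.

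ANXA5, which binds exposed phosphatidylserine and is used to stain apoptotic cells, read 1653.9 and 1880.6 in the controls and 3176.5, 3235.2 and 2537.1 in the clones. Its difference was 0.75 ± 0.36 (SE; limma adjusted p = 0.281). ANXA11, which tethers RNA granules to lysosomes, read 2526.6 and 1773.9 against 3619.4, 4617.5 and 3030. Its difference was 0.80 ± 0.39 (adjusted p = 0.284), and its dimmer probe set, at 0.70, had the same order of groups. The groups did not overlap for either gene, but neither difference passed the test. Under quantile normalization they were 0.58 and 0.66, while the median of all genes moved from 0.04 to 0.17.

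ANXA2 was the brightest and steadiest annexin. Together with S100A10 it forms a heterotetramer that binds plasminogen and actin at the membrane. Its 3 probe sets read 5848 to 8802 over all 8 arrays, and the brightest read 7873.7 and 6946.9 in the controls and 8546.4, 8802 and 8123.8 in the CD24 shRNA clones. The difference was 0.20, with a 95% interval of -0.60 to 1.00 (limma adjusted p = 0.751). Its spread over 8 arrays (SD 0.15 on the log2 scale) lay at the 0.56th percentile of genes above the filter, and that of ANXA10 at the 99.3rd. All 3 probe sets are of a kind that can cross-hybridise. The pseudogene ANXA2P2, on a probe set of the same kind, read 1266.7 to 3029, and the part of its copies in the ANXA2 signal was not tested.

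ANXA1 differed most between clones. It is a glucocorticoid-regulated annexin whose N-terminal peptide signals through formyl peptide receptors. It read 823.1 in untreated HT29, 2860.6 in the GFP clone and 101.7 with 1 CD24 vector. The clones with 2 vectors read 459.4 and 1318.3. The GFP clone, the highest of the 8 arrays, differed from untreated HT29 by 1.78, and the 1-vector clone was the lowest of the 8. In that comparison of 1 array with 1, ANXA1 was 2-fold higher, as were 14.5% of genes, and ANXA10 2-fold lower, as were 7.11%. The difference of CD24 clones from both controls was -1.91 ± 0.98 (SE; limma adjusted p = 0.305), with a 95% interval of -4.17 to 0.35. It was -2.80 against the GFP clone and -1.02 against untreated HT29, so the size turned on the control. Without the 1-vector clone it was -0.97. ZFAND6 (r = 0.952), STX2 (0.938) and ZNF611 (0.933) had the patterns most like it.

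ANXA3, an annexin with a short tail found in neutrophils and several carcinomas, read 617.8 and 596.3 in the controls and 194.5, 297.5 and 738.2 in the clones. The second 2-vector clone lay above both controls and the other clones below. The difference was -0.77 ± 0.56 (SE; limma adjusted p = 0.438). It was -1.30 without that clone and -0.36 without the 1-vector clone, so its size rested on single clones. Between vector numbers, ANXA1 was higher in the 2-vector clones by 2.82 and ANXA3 by 1.23, as means of 2 clones against 1. The share of genes 2-fold or more higher with 2 vectors was 6.13%, and 3.44% were as much lower. With only the first 2-vector clone the difference of ANXA3 was 0.59, with only the second 1.87, and those of ANXA1 were 2.07 and 3.57. There is no test of that comparison. In the same means ANXA10 differed by -0.77 and ANXA4 by -0.76, neither at 2-fold.

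**Figure D3:**
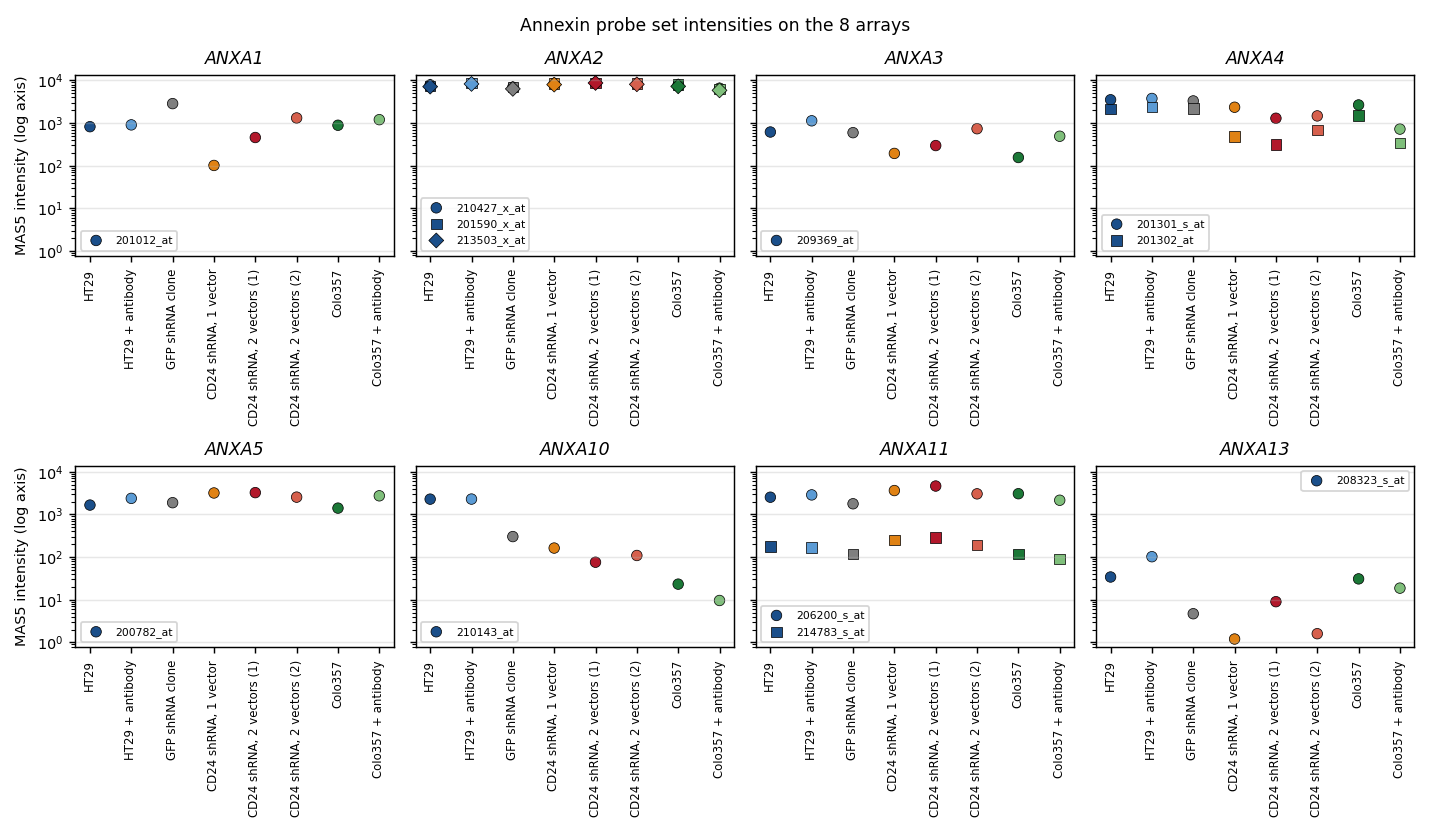
MAS5 intensity (y axis, log scale) of the 12 annexin probe sets on the 8 arrays (x axis), 1 panel per gene and 1 marker shape per probe set. ANXA2 lies between 5848 and 8802 everywhere, while ANXA10 drops from 2276.7 in untreated HT29 to 75.7 in the lowest clone and 9.6 in antibody-treated Colo357.

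Antibody treatment was compared within each line, 1 array against 1, and over both lines together by limma with the line as a block. ANXA3 had the largest joint difference of the annexins. It read 617.8 before and 1131.4 after treatment in HT29, and 156.1 before and 491.6 after in Colo357. The joint difference was 1.23 ± 0.34 (SE, n = 2 lines; limma adjusted p = 0.0710), above 0 in 2 of 2 lines. It did not pass the test, while 1.13% of 6785 genes passed as higher and 2.4% as lower. In this fit 0 of the 7 annexins passed, and at an unadjusted p under 0.05 9.01% of genes were higher, ANXA3 and ANXA5 among them, and 14.1% lower. With an added constant of 50 its adjusted p was 0.0484, and over all probe sets, a fit added after seeing the data, 0.0267. It was 0.132 under quantile normalization, 0.215 with no filter and 0.621 in the limma fit of all 8 arrays. The joint fit, which also gave the comparison of lines below, and the fit of all 8 arrays have 1 residual degree of freedom each. Their SE thus rests mostly on the spread pooled over genes. In the fit of all 8 arrays that spread comes from the pair of 2-vector clones, 1 of which stood apart in RNA controls.

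ANXA5 read 1653.9 before and 2373.1 after in HT29, and 1401.2 before and 2725.9 after in Colo357, higher with antibody in both lines. Its joint difference was 0.74 ± 0.33 (SE; limma adjusted p = 0.213). ANXA1 read 823.1 and 907.9 in HT29 and 890.2 and 1203 in Colo357, a joint 0.29 with a 95% interval of -0.44 to 1.01 (adjusted p = 0.630). ANXA1, ANXA3 and ANXA5 were thus above 0 in both lines, as were 32% of the 6110 genes above the filter in each.

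ANXA4 read lower after antibody in Colo357 and not in HT29. In Colo357 its brighter probe set read 2660.6 before and 723.7 after, and its second 1502.5 and 341, differences of -1.86 and -2.11. In HT29 they read 3520.8 and 3772.4, and 2149.5 and 2390.9, differences of 0.10 and 0.15. Of the 6110 genes above the filter in both lines, 2.44% were at least 2-fold lower in Colo357 and within 0.32 log2 units of untreated in HT29, as ANXA4 was. The joint difference was -0.88 ± 0.45 (SE; limma adjusted p = 0.265). The difference between the lines was -1.96, and limma over all 8 arrays gave it an adjusted p = 1.00, with a 95% interval of -4.34 to 0.42. That fit, added after seeing the data, takes its only residual spread from the pair of 2-vector clones and pools it over all genes. In that pair 1 clone stood apart in RNA controls.

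ANXA2 and ANXA11 had joint differences near 0. ANXA2 read 7873.7 and 8620 in HT29 and 7919.8 and 6561.9 in Colo357, and ANXA11 2526.6 and 2862.2, then 3052.5 and 2145.1. Joint differences were -0.07 (95% interval -0.80 to 0.66, limma adjusted p = 0.921) for ANXA2 and -0.16 (-0.92 to 0.59, adjusted p = 0.810) for ANXA11. ANXA10 differed by 0.01 in HT29 and by -0.76 in Colo357, where it was near the bottom of the scale. ANXA13 was 1.34 higher in HT29 and 0.51 lower in Colo357. In HT29 all 8 annexins were above 0, against 46.7% of genes, but ANXA10 turned to -0.07 under quantile normalization and only ANXA13 reached 2-fold, where 5.04% of genes did so upward and 7.43% downward. In Colo357, at 2-fold, ANXA3 was higher and ANXA4 lower, against 10.6% and 12.8% of genes.

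**Figure D4:**
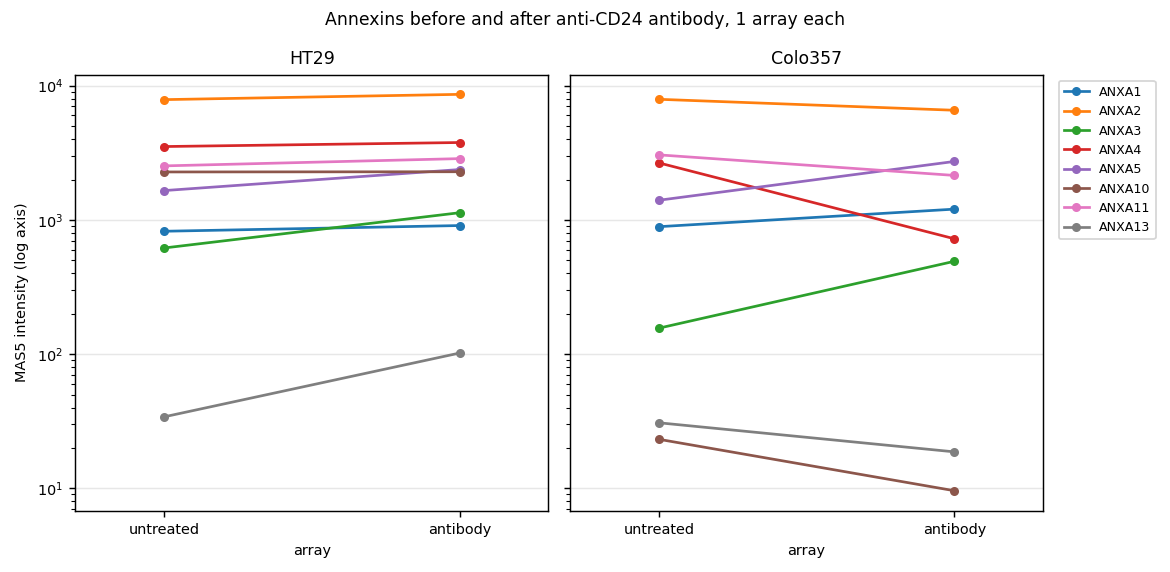
MAS5 intensity (y axis, log scale) of the brightest probe set of each annexin on the untreated and the antibody-treated array (x axis), with HT29 on the left and Colo357 on the right. ANXA3 goes from 617.8 to 1131.4 in HT29 and from 156.1 to 491.6 in Colo357, while ANXA4 goes from 2660.6 to 723.7 in Colo357 and from 3520.8 to 3772.4 in HT29.

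Between the lines, with the antibody as a term, ANXA3 was lower in Colo357 by 1.55 on the log2 scale (difference -1.55 ± 0.34, SE, n = 2 arrays a line; limma adjusted p = 0.00977) and passed the test, with each Colo357 array below both HT29 arrays. In the limma fit of all 8 arrays, whose residual spread comes from the 2-vector clones alone, its adjusted p was 0.108. Over all genes 8.55% passed as lower in Colo357 and 10.8% as higher. ANXA4 differed by -1.38 ± 0.45 (limma adjusted p = 0.0538) and did not pass. The untreated arrays alone differed by -0.40. ANXA10 differed by -6.49 between 4.67 and 11.16, the widest difference of the family, without a test. ANXA1 (0.26, 95% interval -0.46 to 0.98), ANXA2 (-0.19, -0.92 to 0.54), ANXA5 (-0.02, -0.75 to 0.71) and ANXA11 (-0.07, -0.82 to 0.68) did not pass, with limma adjusted p = 0.633 to 0.979.

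**Figure D5:**
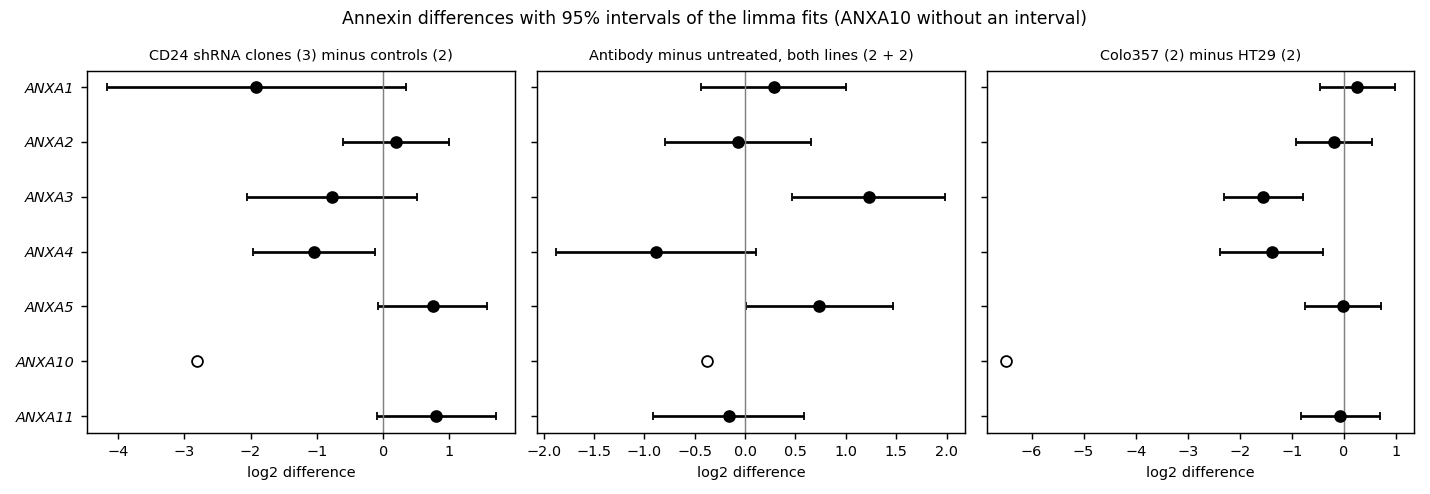
Log2 differences (x axis) of 7 annexins in the 3 limma comparisons, with points for the estimate and bars for the 95% interval; the open ANXA10 points have none because it was chosen by its level. ANXA3 is at 1.23 with antibody and -1.55 in Colo357 against HT29, and the ANXA2 intervals include 0 in each panel.

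Of the other annexins, ANXA6, ANXA7 and ANXA9 had single-symbol probe sets. ANXA7, which binds the calcium sensor PDCD6, read 993.5 to 2097.5 over the 8 arrays by its brighter probe set. ANXA6, an annexin with a doubled core, read 2 and 9.5 in uncloned HT29, 168.2 and 92 in Colo357, and 3.5 to 56.5 in the clones. ANXA9 read 127.3 before and 426.9 after antibody in HT29 and 260.9 and 102 in Colo357. In the 3 fits, 0 of the 2 that passed the filter, ANXA7 and ANXA9, were called.

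Of 12 listed annexin partners 11 had a value. S100A4, a motility-linked partner of ANXA2, read 7409 and 9972.9 in uncloned HT29 and 67.5, 271.9, 244.2 and 119.6 in the GFP, 1-vector and the 2-vector clones. It met the same 2-fold rule as ANXA10, as did 1.3% of genes above the filter, with a difference of -5.72 from uncloned HT29. S100A10, the obligate partner of ANXA2, read 11155 and 9038 in uncloned HT29 and 5303.4, 9159.5, 5941.9 and 4480.3 in the clones, and S100A11, a partner of ANXA1, 4811 and 6131.5, then 4801, 7262.5, 8490.2 and 6551.5. S100A6 read 5098.3 to 13225 over the 8 arrays, PDCD6 1305.6 to 2327.6 and the scaffold AHNAK 263.3 to 711.5. The annexin-binding fusion protein MYOF was higher in Colo357, at 1827.6 and 1436.2 against 291.9 and 246.3 in HT29 (2.55; limma adjusted p = 0.000280). The plasminogen activator PLAT was higher as well (3.58; adjusted p = 2.84e-05), and S100A4 was lower (-3.52; adjusted p = 4.85e-05). In all, 2 of 8 tested partners were higher and 1 lower in Colo357, where 10.8% of all genes were called higher and 8.55% lower, and 0 of 8 passed in the clone or the antibody fit. PLAT read 6.8 and 21 in HT29 and 166.4 and 409.6 in Colo357. It passed the filter through Colo357 only, so its call was in part set by the filter. The ANXA1 receptors FPR1 and FPR2 read 7.1 to 164.4 and 4.8 to 21.2, and DYSF 16.3 to 80.5. The median difference of the 8 partners between CD24 clones and controls was -0.24, against 0.04 for all genes.

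Of 18 listed genes of membrane repair and phosphatidylserine exposure, 14 had a value and 13 were tested. With antibody 1 fell, where 2.4% of all genes did, the flippase ATP11A (-1.47; limma adjusted p = 0.0408), which read 111.6 and 32.7 in HT29 and 270.4 and 94.5 in Colo357. In Colo357 against HT29 2 of 13 were higher, near the 10.8% of all genes. These were caveolin-1 (CAV1, 3.91; limma adjusted p = 1.79e-05) and ATP11A (1.25; limma adjusted p = 0.0215). CAV1 read 19.8 and 40.3 in HT29 and 356.8 and 914.9 in Colo357, so it too passed the filter through Colo357. Its call was thus in part set by the filter. In the clone fit 0 of 13 passed, with a median of -0.01. TMEM30A, the flippase chaperone, had the largest difference there, at -1.81 (adjusted p = 0.208).

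Of 9 listed glucocorticoid response genes, which include the pathway that induces ANXA1, 6 were tested between lines, and 4 were called higher and 1 lower, against 10.8% and 8.55% of all genes. The receptor NR3C1 (5.10; limma adjusted p = 4.52e-06), the phosphatase DUSP1 (4.37; 6.49e-06), SGK1 (2.15; 0.00286) and CEBPD (1.80; 0.00300) were higher in Colo357. Another, ZFP36, named after its values were seen, was lower (-1.03; limma adjusted p = 0.0496). NR3C1 read 2.8 and 5.5 in HT29 and 603.2 and 372.9 in Colo357, so it passed the filter through Colo357 only. Its call was thus in part set by the filter, and its size by the added constant. ANXA1 itself did not pass the test between the lines (0.26). Of 10 phospholipase A2 and prostaglandin genes 7 were tested between lines, and 3, PTGES, PTGS2 and PLA2G4A, were higher in Colo357 and 1, HPGD, lower, beside the same shares of all genes. PTGS2, at 8.5 and 15.8 in HT29, passed the filter through Colo357, and HPGD, at 43.8 and 13.6 in Colo357, through HT29. Their calls were in part set by the filter as well. In the clone fit 0 of 5 glucocorticoid and 0 of 4 phospholipase genes passed, and in the antibody fit 0 of 6 and 0 of 7. Among 7 tested epithelial transcription factors KLF4 rose with antibody (1.59; limma adjusted p = 0.0377), where 1.13% of all genes rose. In Colo357 against HT29 1, KLF4, was higher and 3, GATA6, SOX9 and FOXA1, were lower, against 10.8% and 8.55% of all genes. In the clone fit 0 of 7 passed.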

How the data were processed

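RNA from 8 cell samples was hybridised to 1 array each. The deposited values are probe set intensities from MAS5, per the submitters' processing notes, whose version is not stated there. With 2% of values dropped at either end, every array averaged 250.1, so no further scaling was done. Symbols came from the platform annotation, updated through Entrez IDs for 19052 of 19064 single-symbol probe sets. Each gene was represented by its brightest probe set over 8 arrays, and fits used genes whose mean log2(intensity + 10) over the comparison's arrays exceeded the median probe set mean. limma 3.58.1 (lmFit, eBayes; R 4.3.3) gave two-sided p-values with Benjamini-Hochberg adjustment over all genes, and was tested on simulated data. Comparisons of 1 array with 1 have no test or error. The number of arrays limits precision. The members and gene lists were chosen with earlier results of these data known. Named genes are the members, their listed relatives, listed cell type markers and at most 4 genes of any other list. The 5 (ANXA10) or 3 genes most correlated and 4 neighbours a side are named as well. Alternatives were another constant, quantile normalization, other probe sets, no filter, other controls and arrays left out.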

Additional observations from a re-analysis of the deposited data

Results flagged for a closer look

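The antibody went opposite ways in HT29 and Colo357 for the annexins listed here, each on 1 array against 1. The share of all genes doing so was not counted, so their number is not read as a result about annexins. In Colo357 ANXA10 read 23.2 and 9.6 and ANXA13 30.8 and 18.7, below the median of those arrays. The difference in Colo357 minus that in HT29 was -1.96 for ANXA4 (-1.86 against 0.10), -1.85 for ANXA13 (-0.51 against 1.34), -0.77 for ANXA10 (-0.76 against 0.01), -0.69 for ANXA11 (-0.51 against 0.18) and -0.40 for ANXA2 (-0.27 against 0.13). Under quantile normalization ANXA2 in Colo357 was at 0.02, and ANXA10 in HT29 at -0.07, so neither stayed opposite. A test of this difference, added after seeing the data and made by limma over all 8 arrays, gave an adjusted p = 1.00 for ANXA2, ANXA4 and ANXA11. ANXA10 was chosen by its level and was given no test. ANXA13 did not pass the filter of that fit, so its difference was not tested.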

How the results depend on the processing

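The number of annexins other than ANXA10 past the limma test was 0 in the CD24 clone comparison under every alternative run, including each array left out (0 to 0). With the antibody it was 0 higher and became 1, ANXA3, with a constant of 50 or over all probe sets, the latter added after seeing the data. Between the lines 1 was lower; this became 2 (ANXA3 and ANXA4) with a constant of 50 or over all probe sets and 0 in the fit of all 8 arrays. Under quantile normalization ANXA2 turned to 0.0659 with the antibody and ANXA5 to 0.0501 between lines. In HT29 the 1 annexin higher at 2-fold with antibody became 0 with a constant of 50. With 2 vectors against 1, leaving out a clone gave 1 to 2 higher and 0 to 1 lower at 2-fold. The ANXA10 difference between 4 clones and uncloned HT29 stayed between -4.25 and -3.57, and between -4.25 and -3.63 with a clone left out. ANXA2 has no value without cross-hybridising probe sets. The antibody fit pairs arrays by line. No paired analysis by replicate number was possible because the labels give no replicate numbers shared between groups.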
